A study of Mus musculus with 155 samples.

Results

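The comparison is that of mouse embryonic stem cells (ESCs) treated with retinoic acid (RA) while they expressed H3.3K27L, against RA-treated cells that expressed WT-H3.3. It used 4 RNA-seq libraries of the 155 samples of the series, 42 of which were RNA-seq. These were the H3.3K27L and the WT-H3.3 library taken after 24 h of doxycycline (Dox) and the same pair after 72 h, chosen by their labels alone. All 6 RA-treated libraries, including the H3.3K27M library of each time, entered a single fit in which Dox time was a block. Genes on chromosomes 8, 14 and Y were set aside.

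All of the cells were KH2 mouse ESCs that carried a single extra copy of H3.3 with a SNAP and an HA tag, driven by a Dox-inducible promoter at a fixed site, as WT, K27M or K27L. In K27L the lysine is replaced by leucine and in K27M by methionine. WT-H3.3 cells received Dox as well, so the reference was a cell that expressed the tagged wild-type histone. The lines were hygromycin-selected colonies, which the study calls clones. How many clones stood for each histone is not given in the sources used here. Karyotyping in the study found a potential duplication of chromosome 8 in all its clones, and the study excluded that chromosome. Each histone came with its own line, so the histone and other differences between the lines cannot be told apart. Dox was added after RA, so Dox time and time in RA cannot be told apart. The labels describe the 24 h cultures as grown without Lif and with RA, while those of 72 h name the ESC medium alone in the growth text and RA in the source. Each line had 1 library at each time, so p-values measured the spread left between these libraries after the line and the time were fitted.

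H3.3 is a histone variant that is placed in chromatin throughout the cell cycle, at active genes, enhancers and repeats. Its K27 can be acetylated, a mark of active promoters and enhancers, or methylated by PRC2, a mark of repressed developmental genes. K27M is known as an inhibitor of PRC2, and K27L was made beside it as a change that takes away the same lysine. RA binds nuclear receptors, turns on Hox genes and RA-metabolising enzymes, and drives ESCs out of pluripotency. RA also yields extraembryonic endoderm, the layer that makes the basement membrane and the yolk sac, beside neural cells. Imprinted genes, which are expressed from the maternal or the paternal copy alone, keep that choice through DNA methylation of their control regions.

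The 4 libraries held between 2239137 and 7464040 gene counts, and the H3.3K27M libraries 3105371 and 22269533. The library of lowest depth was WT-H3.3 at 72 h. Ribosomal protein genes took 2.56% to 3.10% of the counts in the 24 h libraries and 5.96% to 7.20% in those of 72 h, in all 3 lines. Chromosome 14 took 4.35% and 4.03% of the counts in H3.3K27L against 3.03% and 2.83% in WT-H3.3. Genes of chromosome Y had 81 and 28 counts in H3.3K27L and 1064 and 326 in WT-H3.3. Over the genes of chromosome 14 the median difference was 0.58 (log2) in RA-treated cells, and what these chromosomes contributed to differences elsewhere was not tested.

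The labels call the cells ES-derived neural progenitor cells. Of 17 naive pluripotency genes, 16 lay below every WT-H3.3 ESC library in all 6 RA-treated libraries. Pax6, a neural progenitor factor, had 12.3 to 42.2 counts per 1000000 counts (CPM, on a scale shared with the ESC libraries) against 0.402 to 2.85 in WT-H3.3 ESCs. Of 31 neural progenitor factors 14 were above every WT-H3.3 ESC library in all 6 RA-treated libraries and 2 were below. Their summed level was 1157.9 to 3513.2 CPM against 767.6 to 1012.6 in WT-H3.3 ESCs. Sox11 was at 111.9 to 630.3 CPM against 18.5 to 36.9, while Hes5 and Fabp7 were close to 0, at 1.02 or less and 0.676 or less. The summed level of 25 extraembryonic endoderm genes was 5343.7 to 26011.6 CPM in the RA-treated libraries and 1572.8 to 2297.2 in WT-H3.3 ESCs. Markers of neural progenitors and of another cell type were thus both above their level in WT-H3.3 ESCs, and the cultures are called RA-treated cells here.

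Of 11782 genes tested, 374 differed between RA-treated H3.3K27L and WT-H3.3 cells at an edgeR adjusted p under 0.05 and a change past 2-fold, which is 3.17% of those tested. In H3.3K27L, 141 genes were higher (1.2%) and 233 were lower (1.98%). The higher genes changed by 1.28 on the log2 scale in the median, with a range of 1.00 to 5.38, and the lower ones by −1.49, with a range of −5.31 to −1.01. Over all genes tested the median was 0.01, and 2395 of the 11782 had an unadjusted p under 0.05 by edgeR. All 141 higher genes were above WT-H3.3 at both times, and 76 of them by more than 2-fold at each. Of the 233 lower genes 229 were below WT-H3.3 at both times, and 139 by more than 2-fold at each. Both H3.3K27L libraries lay above both WT-H3.3 libraries for 103 of the higher genes and below them for 163 of the lower ones, against 1032 and 1076 of all genes tested.

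Across all genes the difference at 24 h and that at 72 h correlated with r = 0.422, and 60.2% had the same sign, a description over genes that are not independent. The calls rested on the block for Dox time: without it no gene was called by edgeR and 160 had an unadjusted p under 0.05. Omitting the 24 h library of WT-H3.3 gave 836 calls, of which 314 were among the 374. In the same fit H3.3K27M differed from WT-H3.3 in 1 higher and 1 lower gene, with 721 at an unadjusted p under 0.05. That contrast shares its WT-H3.3 libraries with the H3.3K27L contrast, so values of H3.3K27M are given beside those of H3.3K27L without a comparison of the results.

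Imprinted genes held the largest difference in each direction. Of 41 genes tested from the list used here, 3 were higher in H3.3K27L (Grb10, Igf2r and Zim1). From the same list 6 were lower (H19, Mest, Peg10, Nnat, Peg3 and Slc38a4). The median over the 41 genes was −0.39, with 28 of them below WT-H3.3. The windows around the starts of 3 of these genes that RefSeq lists are shown because the CG dinucleotide is where DNA methylation is placed, and the capitals mark each CG. Each runs from 250 bases before to 50 after a start in GRCm38.p6: Grb10 at chr11:12037371-12037670 on the minus strand, Mest at chr6:30737800-30738099 on the plus strand and Igf2r at chr17:12769657-12769956 on the minus strand.
Grb10: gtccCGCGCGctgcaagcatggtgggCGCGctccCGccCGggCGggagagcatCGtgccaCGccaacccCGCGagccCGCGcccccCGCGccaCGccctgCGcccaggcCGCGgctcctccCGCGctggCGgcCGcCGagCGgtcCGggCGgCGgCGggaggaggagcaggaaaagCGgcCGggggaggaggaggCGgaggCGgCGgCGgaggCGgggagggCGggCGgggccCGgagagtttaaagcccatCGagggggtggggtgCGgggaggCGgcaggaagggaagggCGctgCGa
Mest: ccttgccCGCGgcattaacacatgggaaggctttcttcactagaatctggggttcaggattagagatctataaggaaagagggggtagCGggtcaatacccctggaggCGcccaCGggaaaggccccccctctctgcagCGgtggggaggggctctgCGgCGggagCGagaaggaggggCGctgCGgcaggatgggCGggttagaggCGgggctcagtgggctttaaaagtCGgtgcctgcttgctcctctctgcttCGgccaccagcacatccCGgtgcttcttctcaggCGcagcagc
Igf2r: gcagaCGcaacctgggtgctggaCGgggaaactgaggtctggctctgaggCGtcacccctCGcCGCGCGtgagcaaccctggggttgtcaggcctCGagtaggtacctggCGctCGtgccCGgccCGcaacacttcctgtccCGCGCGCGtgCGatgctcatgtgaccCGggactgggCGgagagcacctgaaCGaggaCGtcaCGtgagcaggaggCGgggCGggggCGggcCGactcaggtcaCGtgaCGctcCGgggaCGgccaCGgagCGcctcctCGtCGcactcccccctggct
The Grb10 window held 45 CG, and 1.93% of the 32851 windows in the table held as many or more. Igf2r held 34 CG (7.73% held as many or more) and Mest 17 (31.4%), against a median of 7. DNA methylation was not measured in these windows, and whether they hold the control regions of these genes was not tested. Grb10 has 2 starts in that table and Mest has 3, of which 1 each is shown.

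Grb10, an adaptor that restrains insulin and growth factor signalling, lies at 11830511 to 11938686 on chromosome 11 of mm9. It had 15.6 and 3.82 CPM in WT-H3.3 at 24 and 72 h, 507.2 and 279.1 in H3.3K27L, and 19.9 and 3.8 in H3.3K27M. Both H3.3K27L libraries were far above the other 4. The difference was 5.38 ± 0.30 (SE, log2, adjusted p = 2.69e-06 by edgeR). In ESCs Grb10 was at 9.9 to 13.2 CPM in 4 WT-H3.3 libraries and at 52.2 to 172.3 in 3 H3.3K27L libraries, again without overlap (3.46, adjusted p = 0.000742).

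Igf2r, the receptor that clears IGF2, lies at 12875272 to 12962530 on chromosome 17 (mm9). It had 89.1 and 37.6 CPM in WT-H3.3 and 410.5 and 206.6 in H3.3K27L (2.29 ± 0.18, adjusted p = 5.72e-05). H3.3K27M had 113.8 and 68.4 CPM. Zim1, a zinc finger gene next to Peg3 at 6628154 to 6649161 on chromosome 7, had 5.87 and 0.545 CPM in WT-H3.3, from 29 counts and 1 count, against 54.3 and 6.42 in H3.3K27L (3.21 ± 0.32, adjusted p = 0.000607). Within each time H3.3K27L was above WT-H3.3 for both genes. In ESCs neither gene was called, with differences of 0.01 for Igf2r (adjusted p = 0.985) and −1.13 for Zim1 (0.367).

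H19, a long non-coding RNA made from the maternal copy at 149761434 to 149764048 on chromosome 7, went the other way. It had 1255.5 and 1829.1 CPM in WT-H3.3, 35.3 and 40.4 in H3.3K27L, and 773.2 and 1255.4 in H3.3K27M. The H3.3K27L libraries were the lowest by a wide margin at both times (−5.31 ± 0.22, adjusted p = 1.67e-07, the smallest of all genes tested). Igf2, its paternally expressed neighbour, had 19.4 and 0 CPM in WT-H3.3 and 33.5 and 0.755 in H3.3K27L and was not called (0.83, adjusted p = 0.164). In ESCs H19 was at 1.94 CPM or less in WT-H3.3 and at 0.127 to 0.589 in H3.3K27L (−2.46, adjusted p = 0.0647).

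Mest, an enzyme of the hydrolase fold made from the paternal copy at 30673547 to 30698457 on chromosome 6, had 1353.9 and 40.3 CPM in WT-H3.3 and 65 and 3.78 in H3.3K27L (−4.19 ± 0.25, adjusted p = 3.69e-06). Its level was lower at 72 h than at 24 h in all 3 lines, and the 24 h library of H3.3K27L was above the 72 h library of WT-H3.3. H3.3K27M had 1057.2 and 42.9 CPM. In ESCs Mest reached 141.2 CPM in WT-H3.3, and the H3.3K27L libraries, at 0.761 to 8.92, were all below those of WT-H3.3 (−4.41, adjusted p = 0.000742). Peg3, a zinc finger factor, had 4258.8 and 2578.0 CPM in WT-H3.3 and 1894.4 and 886.4 in H3.3K27L (−1.35, adjusted p = 0.00445), and its ESC difference was −1.50 (0.00119). Peg10, a retrotransposon-derived gene of the placenta, had 9205.3 and 450.7 CPM in WT-H3.3 and 2957.3 and 107.3 in H3.3K27L (−1.84, adjusted p = 0.00137).

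**Figure D1:**
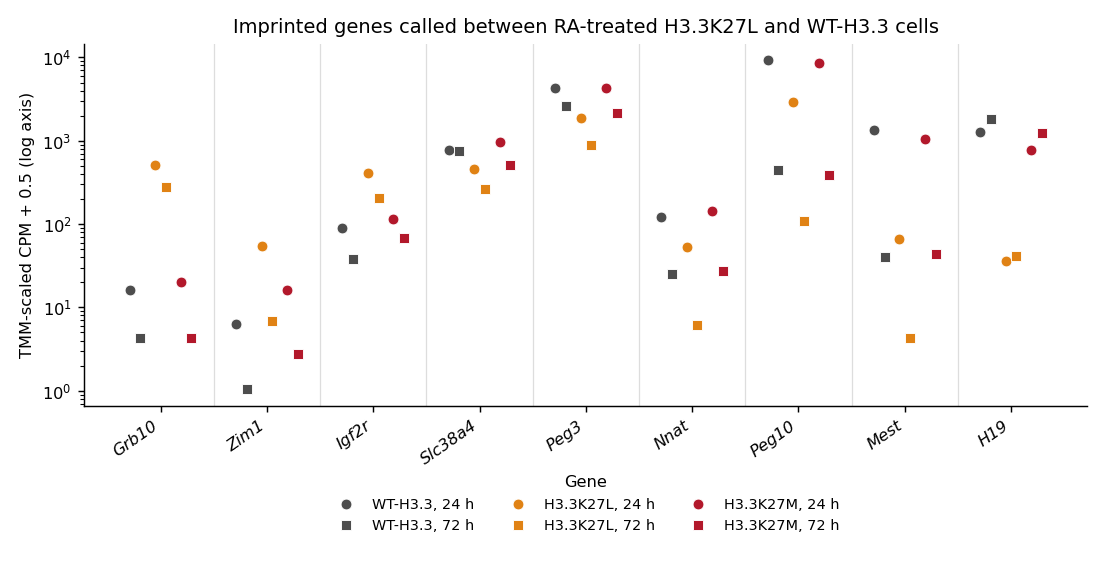
TMM-scaled CPM plus 0.5 on a log axis for the 9 called genes of the imprinted list in each of the 6 RA-treated libraries. Circles mark 24 h and squares 72 h of Dox. H3.3K27L lies above WT-H3.3 at each time for Grb10, Zim1 and Igf2r and below it for the other 6 genes, while the H3.3K27M points mostly lie beside those of WT-H3.3.

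Grouping the list by the parental copy that is expressed, a step taken after the values were seen, 19 of 22 paternally expressed genes tested were below WT-H3.3 and 5 were called lower. Their median was −0.77. In ESC libraries, which are separate cultures, 18 of 19 were below WT-H3.3, with a median of −0.75. Of 7 maternally expressed genes tested, 3 were called higher and H19 was called lower. Of these 7, 5 lay above WT-H3.3 and 2 below, with a median of 0.22. In ESCs 4 lay above and 3 below, with a median of 0.01. Not every gene of the list was assigned to a parental copy. Zrsr1 (−0.95, adjusted p = 0.0174), Mcts2 (−0.95; 0.0499), Plagl1 (−0.94; 0.0461) and Zdbf2 (−0.76; 0.0459), all paternally expressed, passed the adjusted p but not the 2-fold threshold. Snrpn, Ndn and Peg12, of the imprinted region on chromosome 7 whose human counterpart is linked to Prader-Willi syndrome, had differences of −0.05, −0.00 and −0.05. Magel2 and Mkrn3 of the same region were at 0.88 and −0.02, and neither was called. In ESCs Snrpn, Ndn, Peg12 and Mkrn3 were at −0.59, −0.77, −0.74 and −0.19. Leaving out the WT-H3.3 or the H3.3K27L library of 24 h raised the number of genes called lower, in the whole list and over all genes tested. With single libraries left out, the differences ranged from 4.97 to 6.37 for Grb10, 2.12 to 2.52 for Igf2r and 3.05 to 3.59 for Zim1. The call of Slc38a4 was lost without either 72 h library of the pair.

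Most genes of extraembryonic endoderm were higher in RA-treated H3.3K27L cells. Of 22 tested, 14 were called, each of them higher, and all 22 lay above WT-H3.3, with a median of 1.13 and a range of 0.63 to 2.99. The list had 30 genes, of which 5 were on chromosomes set aside (Gata4, Sox7, Col4a1, Col4a2 and Plat) and 3 were too low to test (Afp, Apoa1 and Apoa4). Of the transcription factors, Gata6, which starts this lineage, had 127.4 and 169.5 CPM in WT-H3.3 and 213.0 and 433.9 in H3.3K27L (1.04 ± 0.18, adjusted p = 0.00793). Foxa2, a pioneer factor of endoderm, had 47.6 and 154.2 CPM in WT-H3.3 and 97.1 and 476.2 in H3.3K27L (1.32 ± 0.22, adjusted p = 0.00636). At each time the H3.3K27L library was the higher of the pair for both factors. Sox17, another factor of this lineage, at 109.0 and 87.2 CPM against 171.5 and 272.7, was just outside the threshold (1.05, adjusted p = 0.05).

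The largest amounts of RNA were those of basement membrane genes. The laminin chain Lamb1 had 2163.2 and 1365.9 CPM in WT-H3.3 and 4395.7 and 3536.0 in H3.3K27L, without overlap (1.18 ± 0.23, adjusted p = 0.0139). Lama1 (1.05) and Lamc1 (1.03), the other chains of the same laminin, were higher too. Sparc, a matrix protein that binds collagen, had 2246.0 and 4072.0 CPM in WT-H3.3 and 5906.8 and 7755.5 in H3.3K27L (1.17, adjusted p = 0.011). Srgn, a proteoglycan core protein, had 59.9 and 54.5 CPM against 217.3 and 217.9 (1.90, adjusted p = 0.00137). Of surface and secreted proteins, Pdgfra (1.13), Dab2 (1.01), Fst (1.17), Rbp4 (1.26), Amn (2.43) and Thbd (2.99) were called. Thbd, which encodes thrombomodulin, a thrombin-binding protein of parietal endoderm, rested on 4 and 3 counts in WT-H3.3 and 29 and 54 in H3.3K27L.

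**Figure D2:**
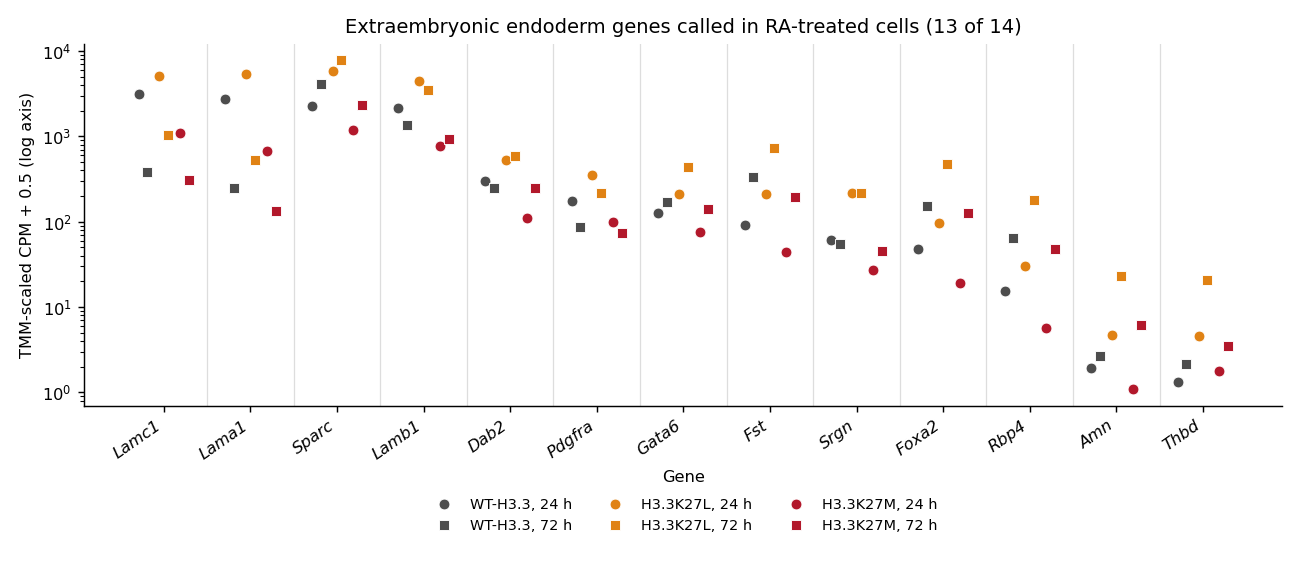
TMM-scaled CPM plus 0.5 on a log axis for 13 of the 14 called extraembryonic endoderm genes in each RA-treated library, ordered by their WT-H3.3 level at 24 h, with circles for 24 h and squares for 72 h. The H3.3K27L point lies above the WT-H3.3 point of the same time for each gene drawn, and most H3.3K27M points lie at or below WT-H3.3.

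The summed level of 25 genes of the list, on the scale shared with ESCs, was 13125.7 and 8086.3 CPM in WT-H3.3, 26011.6 and 17395.7 in H3.3K27L and 5343.7 and 5656.3 in H3.3K27M. The median H3.3K27M difference over the 22 genes was −0.89. In bulk RNA a larger share of endoderm cells and more RNA of these genes per cell cannot be told apart. In ESCs 13 of these genes could be tested, 6 above and 7 below WT-H3.3, with a median of −0.04. There edgeR called 0 of the 13 and DESeq2 1. Of the 13, 7 had an unadjusted p under 0.05, against 1439 of all 12796 genes tested in ESCs. With the 72 h library of WT-H3.3 omitted, the shallowest, 4 genes of the list were called instead of 14, with a median of 0.83. Without the other libraries 11 to 18 were called, and DESeq2 called 15.

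Most pluripotency genes were at a low level in every RA-treated line, and a few were higher in H3.3K27L. Klf4, a reprogramming factor that epithelial cells also express, had 87.5 and 77.4 CPM in WT-H3.3 and 217.1 and 243.2 in H3.3K27L, with no overlap (1.46 ± 0.18, adjusted p = 0.00138). Fbxo15 (1.04, adjusted p = 0.00636) and Dppa5a (1.02; 0.0391) were the other called genes among 11 naive pluripotency genes tested. The median of these 11 was 0.34. The summed level of 17 such genes was 510.8 and 386.9 CPM in WT-H3.3 and 798.5 and 700.7 in H3.3K27L, against 5958.6 to 7128.9 in WT-H3.3 ESCs. Nanog, the core factor of ESCs, was too low to test in RA-treated cells, at 1.25 to 3.55 CPM against 1234.9 to 1853.3 in WT-H3.3 ESCs.

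Among 15 general and primed pluripotency genes tested, 3 were called, all higher, Sox2 and Sall4 among them, and the median was 0.45. Sall4, a zinc finger factor also made by extraembryonic endoderm, had 250.3 and 158.1 CPM in WT-H3.3 and 426.0 and 473.6 in H3.3K27L (1.13, adjusted p = 0.0124). Sox2, a factor shared by ESCs and neural progenitors, had 10.3 and 13.6 CPM in WT-H3.3, 24 and 27.6 in H3.3K27L, and 33.4 and 31.9 in H3.3K27M (1.14, adjusted p = 0.0197). Both mutants were above WT-H3.3 at each time for Sox2, with an H3.3K27M difference of 1.51. Pou5f1, which encodes Oct4, stood at 2.84 and 0 CPM in WT-H3.3 and 5.62 and 0.378 in H3.3K27L (1.06, adjusted p = 0.388). The calls of Fbxo15, Dppa5a, Sox2 and Sall4 were each lost when 1 or another of the 6 libraries was left out in turn, and that of Klf4 was not.

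Genes of the RA response lay mostly below WT-H3.3 in H3.3K27L. Of 22 tested, 19 lay below WT-H3.3, 6 were called lower and 1 was called higher, with a median of −0.71. Of the enzymes, Dhrs3, which turns retinaldehyde back to retinol, had 51.2 and 65.4 CPM in WT-H3.3 and 25.2 and 31.3 in H3.3K27L (−1.05 ± 0.24, adjusted p = 0.0269). Aldh1a2, which makes RA, had 13.4 and 24.5 CPM in WT-H3.3 and 6.47 and 9.44 in H3.3K27L (−1.21, adjusted p = 0.0499). For both enzymes the 2 H3.3K27L libraries lay below the 2 of WT-H3.3. Nrip1, a corepressor of nuclear receptors (−1.02), and Tshz1, a zinc finger factor (−1.07), were called lower as well.

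Crabp1, an RA-binding protein, was the exception. It had 10.7 and 27.8 CPM in WT-H3.3, 44 and 67.2 in H3.3K27L, and 28.3 and 41.4 in H3.3K27M (1.66 ± 0.24, adjusted p = 0.00419). Cyp26a1, the enzyme that breaks RA down, was above WT-H3.3 without reaching 2-fold (0.88, adjusted p = 0.0203), while Cyp26b1 was at −1.64 (0.0928). In ESCs, which had no added RA, 19 of these genes were tested, with a median of 0.00, 0 called by edgeR or DESeq2 and 3 at an unadjusted p under 0.05. With the 72 h library of WT-H3.3 or the 24 h library of H3.3K27L omitted, 4 of the list were called lower instead of 6, and DESeq2 called 4.

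Hox genes, which pattern the body axis and are turned on by RA, lay mostly below WT-H3.3 as well. Of 29 tested, 23 lay below WT-H3.3, 4 were called lower (Hoxa5, Hoxb1, Hoxc5 and Hoxc8) and 2 were called higher (Hoxa9 and Hoxa10), with a median of −0.70. Hoxb1 had 20.3 and 39.2 CPM in WT-H3.3 and 7.87 and 12.5 in H3.3K27L (−1.49 ± 0.24, adjusted p = 0.00636). Hoxa5 had 63.8 and 324.3 CPM in WT-H3.3 and 29.7 and 118.2 in H3.3K27L (−1.29, adjusted p = 0.00423). Hoxa9, which lies in the same cluster, had 9.32 and 32.7 CPM in WT-H3.3, 39.4 and 59.7 in H3.3K27L, and 26.5 and 57.4 in H3.3K27M (1.48, adjusted p = 0.00931). Genes of a single cluster thus moved in opposite directions. The median H3.3K27M difference over the 29 genes was 0.54. In ESCs 14 Hox genes were tested, and 12 of them lay below WT-H3.3, with a median of −0.96. There edgeR called 2, both lower, and 7 had an unadjusted p under 0.05, against 1439 of all 12796 genes. Hoxa9, Hoxa10 and Hoxc5 were at 2.21 CPM or less in the ESC libraries of WT-H3.3 and H3.3K27L. With the 24 h RA-treated library of WT-H3.3 omitted, more Hox genes were called lower, as were more genes over all those tested. The call of Hoxa10 was lost without either 24 h RA-treated library of the pair.

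At the settings used throughout, the genes called in the neural progenitor, neuronal and axon guidance lists were all lower in H3.3K27L. Over all genes tested, 1.98% were called lower. Of 22 neural progenitor factors tested, 14 lay below WT-H3.3 and 8 above. Nes, Gli3 and Sox9 were called lower and 0 were called higher. The median was −0.35, with a range of −1.27 to 1.89. Nes, the intermediate filament of neural progenitors, had 275.6 and 79 CPM in WT-H3.3 and 141.1 and 24.2 in H3.3K27L (−1.27 ± 0.21, adjusted p = 0.00626). Gli3, which represses Sonic hedgehog targets, had 259.8 and 118.3 CPM in WT-H3.3 and 114.9 and 55.9 in H3.3K27L (−1.14, adjusted p = 0.00421). Pax6 did not pass the test, at 11.9 and 27.3 CPM in WT-H3.3 and 16.2 and 25.7 in H3.3K27L (0.19, adjusted p = 0.729). The summed level of 31 such factors was 2056.3 and 2155.1 CPM in WT-H3.3, 1469.2 and 1157.9 in H3.3K27L and 3513.2 and 2141.8 in H3.3K27M. With the 24 h library of WT-H3.3 or of H3.3K27L omitted, more factors of the list were called lower, as were more genes over all those tested. With that of H3.3K27L omitted a gene of the list was called higher. The call of Sox9 was lost without either 72 h library of the pair. A gene of the list was also called higher with no fold threshold, with RLE scaling, with no filter on low counts, with fewer chromosomes set aside, with the 4 libraries alone, and with either H3.3K27M library or the 72 h library of WT-H3.3 omitted.

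Of 19 genes of the neuronal cytoskeleton and synapse, 17 lay below WT-H3.3 and 3 were called lower, namely Dcx, Map1b and Dpysl3, which act on microtubules or actin in young neurons. Dpysl3 had 466.8 and 445.3 CPM in WT-H3.3 and 254.7 and 134.8 in H3.3K27L (−1.30, adjusted p = 0.00626). Dcx was low, at 12.2 and 7.09 CPM against 2.53 and 3.4 (−1.85, adjusted p = 0.0219). Of 34 axon guidance genes only Dcc, the netrin receptor, was called, with 8.3 and 13.6 CPM in WT-H3.3 and 2.25 and 3.02 in H3.3K27L (adjusted p = 0.0146). Proneural and neuronal transcription factors gave 0 calls by edgeR or DESeq2 in 10 tested, with 1 at an unadjusted p under 0.05. Most of that list, 24 of 36 genes, was too low to test. With the WT-H3.3 library of 72 h omitted the calls of Map1b and Dpysl3 were lost, and without either 24 h library of the pair that of Dcx.

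Genes of mesenchymal cells that passed the test were lower. Of 23 fibroblast and extracellular matrix genes, Fn1, Col5a1, Acta2 and Cnn1 were called lower, with a median of −0.95. Of the 23, 15 lay below WT-H3.3 and 8 above, with a range of −2.14 to 1.21. The summed level of 27 such genes, on the scale shared with ESCs, was 2905.2 and 3200.0 CPM in WT-H3.3 and 2256.3 and 3719.4 in H3.3K27L. At 72 h Ctgf made up 1086.1 CPM of that sum in WT-H3.3 and 2608.2 in H3.3K27L. Fn1, fibronectin, had 1107.2 and 339.6 CPM in WT-H3.3 and 610.4 and 108.4 in H3.3K27L (−1.24 ± 0.21, adjusted p = 0.00671). Acta2, smooth muscle actin, had 299.1 and 491.6 CPM in WT-H3.3 and 153.4 and 41.9 in H3.3K27L (−2.14, adjusted p = 0.0139). Its difference was larger at 72 h. More genes of the list were called lower without the WT-H3.3 or the H3.3K27L library of 24 h, or without the H3.3K27M library of 72 h. The number called lower over all genes tested rose in these fits too. The call of Fn1 was lost with the 72 h library of WT-H3.3 omitted and that of Cnn1 without either 72 h library of the pair.

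Of 14 mesoderm genes Prrx1, Prrx2 and Wt1 were called lower and Snai1, a repressor of epithelial genes, higher. Wt1 had 35 and 178.2 CPM in WT-H3.3 and 13.5 and 49.5 in H3.3K27L (−1.64, adjusted p = 0.00559). Snai1 had 17.2 and 66.5 CPM in WT-H3.3 and 28.7 and 245.1 in H3.3K27L (1.37, adjusted p = 0.0111). Among 18 trophoblast and keratin genes, Krt7 (−1.58) and Peg10 were lower. Among 15 neural crest genes Kit (1.13) and Crabp1 were higher and Ets1 (−1.12) was lower, and the median of 0.05 was close to that of all genes. The calls of Snai1 and Kit were lost without either 72 h library of the pair, that of Prrx1 without the 24 h library of H3.3K27M or H3.3K27L, and that of Ets1 without the latter.

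**Figure D3:**
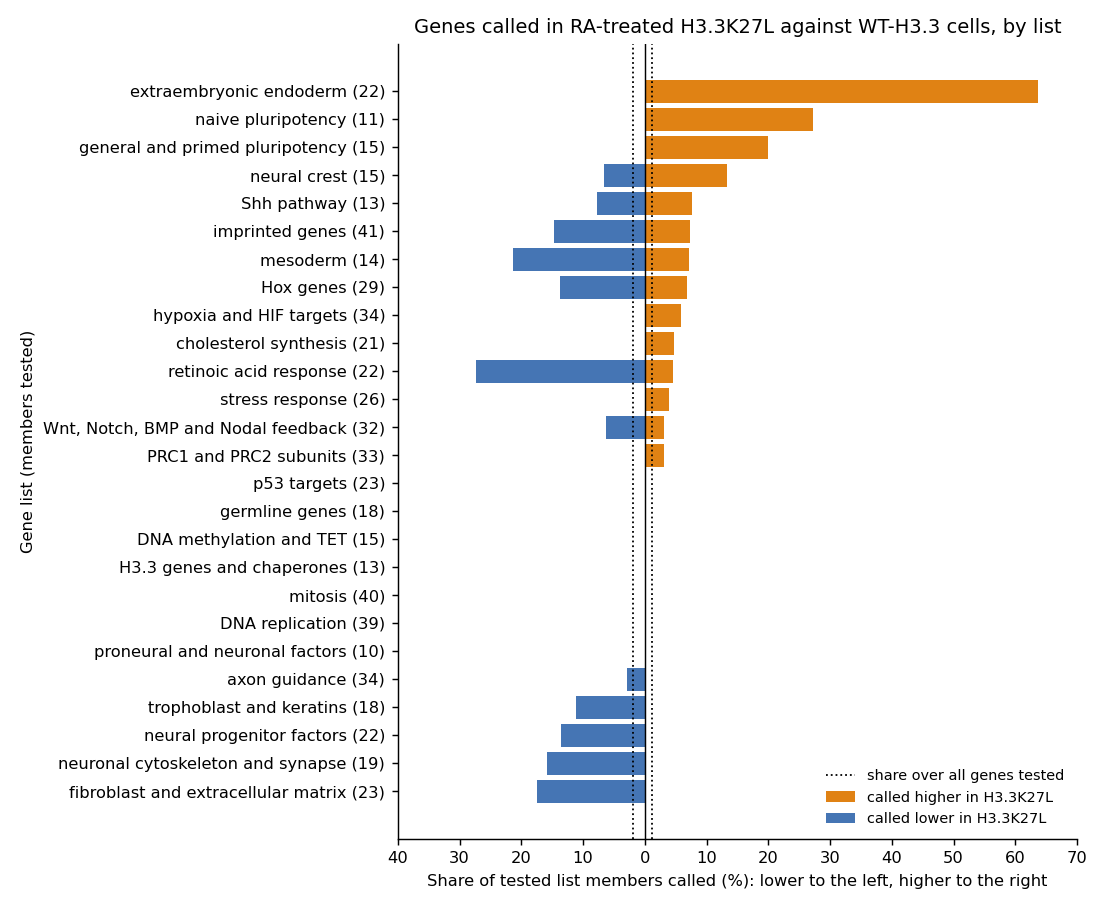
Share of the tested members of each gene list called higher (to the right) or lower (to the left) in RA-treated H3.3K27L cells, in percent, with dotted lines at 1.2% and 1.98%, the shares over all genes tested. The bar of extraembryonic endoderm, with 14 of 22 genes, is the longest to the right.

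Of hypoxia genes and HIF targets 29 of 34 tested lay above WT-H3.3, with a median of 0.41. P4ha1 and P4ha2, subunits of the enzyme that hydroxylates proline in collagen, were called higher, at 1.24 (adjusted p = 0.0133) and 1.08 (0.00626). P4ha1 had 224.8 and 158.1 CPM in WT-H3.3, 470.7 and 444.5 in H3.3K27L, and 85.9 and 144.3 in H3.3K27M. Both calls were lost with the WT-H3.3 library of 72 h omitted. Vegfa passed the adjusted p with a smaller difference (0.73, adjusted p = 0.0292), while Ddit4 did not (0.11; 0.792). In ESCs 30 of 34 of the list lay above WT-H3.3, with a median of 0.28, 0 called by either tool and 7 at an unadjusted p under 0.05. Of all 12796 genes tested in ESCs, 1439 were under that unadjusted p.

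Among chromatin genes, 13 that encode H3.3 or its chaperones gave 0 calls by edgeR or DESeq2 and 0 at an unadjusted p under 0.05. The H3.3 genes H3f3a and H3f3b differed by −0.11 and 0.14. Whether reads of the tagged H3.3 copy entered their counts was not tested. Of 33 PRC1 and PRC2 subunits 1 was called, Epop, a PRC2 partner of ESCs, at 153.9 and 165.7 CPM in WT-H3.3 and 353.0 and 322.9 in H3.3K27L (1.09, adjusted p = 0.00559). Its call was lost without the H3.3K27L library of 24 h. Ezh2, the methyltransferase of PRC2, was at −0.09. The 15 DNA methylation and TET genes gave 0 calls by both tools, with 5 at an unadjusted p under 0.05.

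Proliferation genes gave 0 calls by both tools. Of 39 DNA replication genes tested 28 lay above WT-H3.3, with a median of 0.11 and 5 at an unadjusted p under 0.05. Of 40 mitosis genes 31 lay above it, with a median of 0.21 and 10 under that unadjusted p. A further 6 DNA replication genes were on chromosomes set aside. The median over all genes tested was 0.01. Over all 11782 genes tested, 2395 were under that unadjusted p. Of 23 p53 targets 22 lay below WT-H3.3 with a median of −0.29, and 0 were called by either tool, with 9 at an unadjusted p under 0.05. Perp (−0.93, adjusted p = 0.0405) and Plk2 (−0.85; 0.0329) of that list passed the adjusted p alone. Of 18 germline genes 15 lay below WT-H3.3, again with 0 calls by either tool and 8 at an unadjusted p under 0.05. In ESCs 13 of 15 germline genes lay below WT-H3.3, with a median of −0.66, and edgeR called 1 lower there while DESeq2 called 4. Single genes were called in stress response (Xbp1, a factor of the secretory pathway, 1.03 with adjusted p = 0.00574) and cholesterol synthesis (Insig1). Insig1, which holds back sterol synthesis, had 145.4 and 45.8 CPM in WT-H3.3 and 385.3 and 167.7 in H3.3K27L (1.63, adjusted p = 0.00137). Of 32 feedback genes of Wnt, Notch, BMP and Nodal signalling, Hey2 (1.89) was higher and Lgr5 (−1.49) and Dusp6 (−1.15) were lower. Leaving out either 72 h library of the pair ended the calls of Hey2 and Dusp6, and leaving out either 24 h library that of Xbp1. Lgr5 was not called with the 24 h library of H3.3K27L omitted, when its difference was −0.92, nor by DESeq2.

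Outside the lists, the higher genes of smallest p included Il33, an alarmin cytokine, Fgfr3, a receptor of fibroblast growth factors, Adora1, an adenosine receptor, Cmklr1, the chemerin receptor, and Pth1r, the receptor of parathyroid hormone. Il33 had 21.1 and 27.8 CPM in WT-H3.3, 84.2 and 82.3 in H3.3K27L and 12.1 and 16.7 in H3.3K27M (1.81, adjusted p = 0.00137). Fgfr3 had 12.2 and 31.1 CPM in WT-H3.3 and 38.9 and 102.0 in H3.3K27L (1.70). Pth1r, which parietal endoderm is known to express, had 134.7 and 570.7 CPM against 303.7 and 1307.8 (1.18, adjusted p = 0.00386).

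The lower genes of smallest p included Cldn4, a tight junction protein, at 122.7 and 103.6 CPM in WT-H3.3 and 37 and 33.6 in H3.3K27L (−1.68, adjusted p = 0.000607). Scd3, a fatty acid desaturase, had 32 and 63 counts in WT-H3.3 and 5 and 6 in H3.3K27L (−3.59, adjusted p = 0.00137). Also among them were genes known from the 2-cell-like state of ESC cultures, Zscan4d (−2.09), BC080695 (−2.47) and the deubiquitinase Dub1 (−2.04). Zscan4d had 32 and 46.9 CPM in WT-H3.3 and 8.29 and 9.82 in H3.3K27L. In ESCs the differences were −1.89 for Zscan4d, −1.84 for BC080695 and −1.82 for Dub1, none of them called. Of 3 Zscan4 genes tested 2 were called lower, and of 5 Dub and Usp17l genes 4 were. Members of these families are near-identical copies, so which copy the reads came from is uncertain.

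Etv6, Gprc5a and Lrp6, also among the lower genes of smallest p, lie in a single stretch of chromosome 6. Sliding windows of 20 neighbouring expressed genes, of mean CPM over 5, showed a median under −0.4 in 59 of 10305 windows, and 58 of the 59 were on chromosome 6. The lowest window median was −0.76, at 131314876 to 137700453 (mm9), and the lowest on any other tested chromosome was −0.41, on chromosome 5. The longest run of such windows spanned 124881406 to 145814078. These windows were drawn after the values had been seen.

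In that stretch 56 of 65 genes lay below WT-H3.3, with a median of −0.50 against 0.04 on the other autosomes. It was −0.47 at both times, and the H3.3K27M medians were 0.02 and 0.04. In the ESC libraries, which were not used to find the stretch, 58 of 63 genes lay below WT-H3.3, with medians of −0.59, −0.48 and −0.54 in the 3 H3.3K27L libraries. The 6 genes called lower there in RA-treated cells were Etv6, an ETS repressor, Lrp6, a Wnt co-receptor, Dusp16, Gpr19, Gprc5a and Emp1. Etv6 had 160.2 and 287.2 CPM in WT-H3.3 and 62.1 and 77.8 in H3.3K27L (−1.63, adjusted p = 0.00137). A shorter run at 115803488 to 122436340 had 29 of 36 genes below WT-H3.3 in RA-treated cells (median −0.38) and 27 of 34 in ESCs (−0.42). The remaining run, at 49193920 to 52716774, holds Hoxa genes and had 15 of 25 genes below WT-H3.3 in RA-treated cells (median −0.22) and 10 of 17 in ESCs (−0.12). Its called genes were Hoxa5, lower, and Hoxa9 and Hoxa10, higher, and its H3.3K27M medians were 0.25 and 0.26. Setting aside the genes of the longest run, also those of lower CPM, left 362 calls in RA-treated cells, 139 higher and 223 lower.

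**Figure D4:**
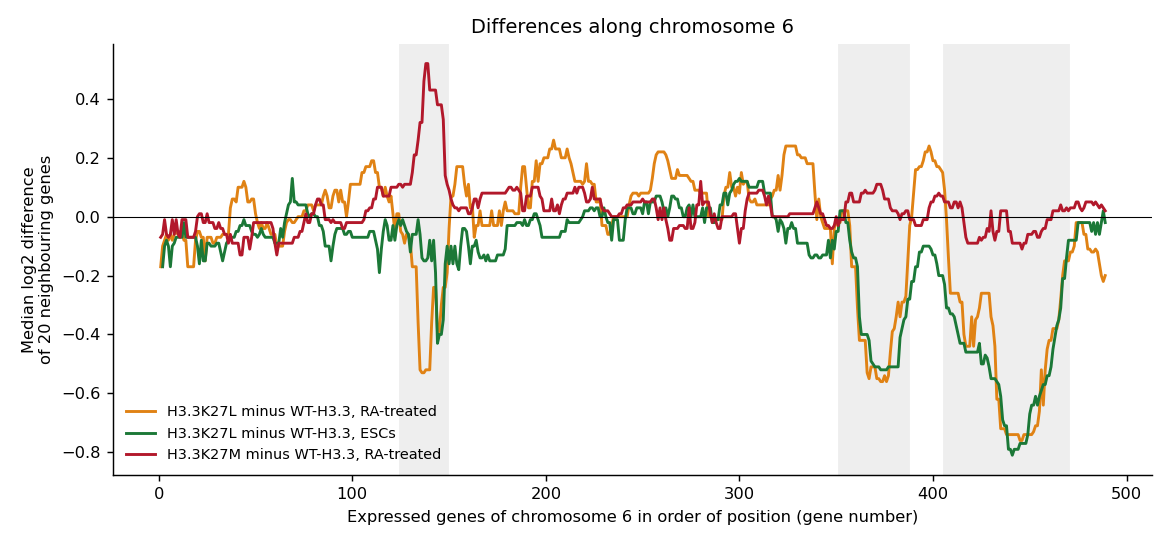
Median log2 difference of 20 neighbouring expressed genes along chromosome 6, by gene order, for H3.3K27L minus WT-H3.3 in RA-treated cells and in ESCs and for H3.3K27M minus WT-H3.3 in RA-treated cells, with the 3 runs of low windows shaded. Both H3.3K27L lines dip in the long run on the right, where the median over its genes was −0.50 in RA-treated cells and −0.54 in ESCs, while the H3.3K27M line stays near 0.

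The same contrast in ESCs, which were kept in ESC medium and received Dox for 24 or 72 h, called 43 of 12796 genes (0.336%), 4 higher (0.0313%) and 39 lower (0.305%) in H3.3K27L. The count in RA-treated cells was larger, but the depth, the number of libraries and the spread differed between the fits. Of the 374 genes called in RA-treated cells 9 were also called in ESCs, all in the same direction, which is 2.41% of the former and 20.9% of the latter. Grb10 was the only higher gene of the 9. When the ESC fit was blocked on replicate number, 128 genes were called there, including all 43, and 26 of them were shared with the calls in RA-treated cells in the same direction. Of the 233 lower genes, 178 could be tested in ESCs and 141 of these (79.2%) were below WT-H3.3 there, with a median of −0.62. Of the 141 higher genes 111 could be tested and 66 (59.5%) were above, with a median of 0.13. Over all genes tested in both, 52.3% had the same direction.

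The difference between the RA-treated and the ESC contrast was tested itself. It passed for 30 of 14333 genes (0.209%), 18 with the higher value in RA-treated cells (0.126%) and 12 with the lower (0.0837%). Of the genes called in RA-treated cells, 12 of the higher and 7 of the lower were among them. With the replicate block 49 genes passed, including all 30. Igf2r had 65.7 to 155.1 CPM in WT-H3.3 ESCs and 78.3 to 146.2 in H3.3K27L ESCs, overlapping ranges, and its RA difference exceeded that in ESCs by 2.28 (adjusted p = 0.0108). For Zim1 the excess was 4.32 (adjusted p = 0.0108), with all ESC libraries at 2.38 CPM or less. For Cldn4 the difference between the contrasts was −1.57 (adjusted p = 0.0402), and for Mest, lower in both, it was 0.25 (0.944). No interaction passed when the WT-H3.3 RA library of 72 h was left out, by edgeR, with 1009 genes at an unadjusted p under 0.05.

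**Figure D5:**
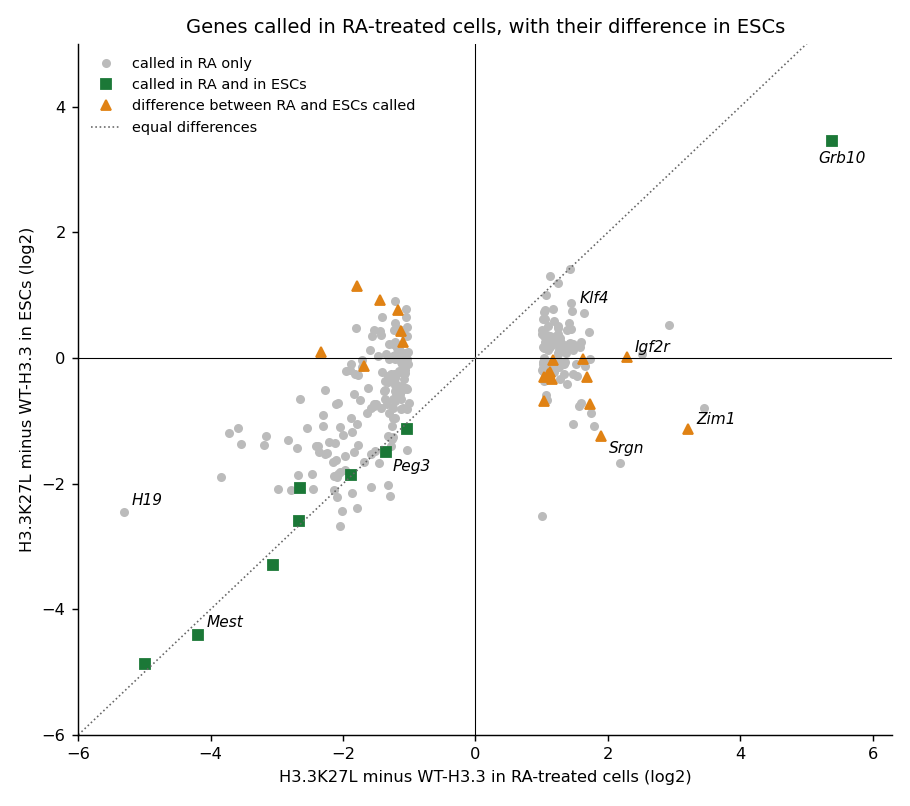
H3.3K27L minus WT-H3.3 (log2) in RA-treated cells on the horizontal axis and in ESCs on the vertical axis for the genes called in RA-treated cells that could be tested in ESCs, with the diagonal marking equal differences. Mest and Peg3 lie near the diagonal, Grb10 is high on both axes, and Igf2r (2.29 and 0.01) and Zim1 (3.21 and −1.13) lie far below it.

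The level of these genes in ESCs without RA was compared with that after RA. The 233 genes lower in H3.3K27L had a median of 2.07 (log2 CPM) in WT-H3.3 ESCs, 4.63 in RA-treated WT-H3.3 cells and 3.18 in RA-treated H3.3K27L cells. In 10.3% of them WT-H3.3 ESCs were above RA-treated WT-H3.3 cells, against 49.2% of all genes tested. The 141 genes higher in H3.3K27L had medians of 3.33 in WT-H3.3 ESCs, 4.35 in RA-treated WT-H3.3 cells and 5.62 in RA-treated H3.3K27L cells, and 30.5% were higher in WT-H3.3 ESCs. Since the RA-treated levels of WT-H3.3 enter both comparisons, these values are a description and were not tested.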

How the data were processed

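RNA-seq was measured in the samples described above. Per the submitters' processing notes and the methods of the study, the authors aligned reads to mm9 with STAR 2.7.1, and they deposited raw read counts per gene. The annotation used for counting, and which of the study's library kits was used for each library, are not given in the sources used here. A further 20 ESC columns of the deposited tables were not used. Gene symbols and mm9 positions came from GENCODE vM1, which matched 32589 of 55471 genes and 98.4% of the counts. Of the 5120 genes set aside (10.1% of the RA counts), 2360 were placed on their chromosome by their order in the table.

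The tests ran on the counts as deposited, in edgeR 4.0.16 (R 4.3.3), with TMM scaling, filterByExpr and the quasi-likelihood F test, adjusted by Benjamini-Hochberg over all genes tested. The RA fit had terms for Dox time and line over 6 libraries, the ESC fit the same terms over 11 libraries, and the test of the difference between both contrasts used all 17. Called genes had an adjusted p under 0.05 and a fold over 2 or under 0.5. An ESC library of H3.3K27L with 68378 counts was left out. The script was tested on simulated counts first. DESeq2 1.42.0 and the other settings of the closing section were alternatives. CPM are TMM-scaled, and log2 values come from the fit. Depth limits precision, and intervals from the fit cover the spread between these libraries only.

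Named genes were the 12 genes of lowest adjusted p in each direction that had a symbol and lay on the same side of WT-H3.3 at both times, the called members of the lists, H3f3a, H3f3b and a short list of genes the study names (89 in all), and the marker lists for the check of the label. Genes of the lists and regions that are named with values for other reasons were chosen after their values were seen. The comparison, the lists and the rule were chosen with earlier results of these data known, so none is independent evidence. A few called genes are not reported here. For 12 list genes the annotation had an older symbol. Replicates were checked for copies, and none agreed within sampling noise. The RA libraries carry no replicate number but 1, so a block was possible in the ESC libraries alone. There the replicate numbers met no source or check that fixed them as pairs for every line (closing section), so the block is an alternative, printed beside the ESC counts.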

Additional observations from a re-analysis of the deposited data

Results flagged for a closer look

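The difference between H3.3K27L and WT-H3.3 was not the same in RA-treated cells and in ESCs for 8 of the named genes, by the edgeR test of that difference itself. On the log2 scale, the RA difference minus the ESC difference was 4.32 for Zim1, 3.12 for Srgn, 2.28 for Igf2r, 1.71 for Fbxo15, 1.65 for Insig1, 1.33 for Xbp1, 1.21 for Sparc and −1.57 for Cldn4, with adjusted p-values of 0.0108, 0.0282, 0.0108, 0.048, 0.0456, 0.048, 0.0456 and 0.0402. Zim1 and Srgn were close to 0 in ESCs, where the highest library had 2.38 CPM for Zim1 and 1.94 for Srgn. Fbxo15 was high in ESCs, at 377.2 to 745.4 CPM in WT-H3.3 and 246.8 to 388.4 in H3.3K27L, and Sparc had 322.1 to 476.6 and 381.5 to 400.8.

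Genes on the chromosomes that were set aside also carried a signal. The 375 expressed genes of chromosome 14 had a median difference of 0.58 in RA-treated cells, with 38 of them below WT-H3.3, against a median of 0.04 on the other autosomes. For H3.3K27M the chromosome 14 median was 0.03 at 24 h and 0.00 at 72 h. Among the ESC libraries of H3.3K27L it was 0.58 and 0.54 in the replicate 1 libraries of 24 h and 72 h and 0.02 in the replicate 2 library of 24 h. That replicate 2 library instead had a median of −0.50 on chromosome 8.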

How the results depend on the processing

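Of the 374 calls in RA-treated cells, 374 were also called with RLE scaling (383 calls), 372 without a filter on low counts (527), 284 by DESeq2 (298), 314 with the 4 H3.3K27L and WT-H3.3 libraries alone (333) and 369 with only chromosome 8 set aside (445). Without the fold threshold 668 genes were called, at 4-fold 79, with counts thinned to the lowest library 25, and without the block for Dox time 0, all by edgeR. Thinning lowers the counts of all libraries to the lowest depth. Leaving out each of the 6 libraries in turn gave 349 to 836. Among the 89 named genes 29 lost their call with the 72 h library of WT-H3.3 omitted and 16 with each H3.3K27L library omitted in turn. Ddit4, which was not called, ranged from −0.06 to 0.26 with single libraries left out, the former (adjusted p = 0.959) without the H3.3K27L library of 24 h.

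In ESCs the 43 calls became 20 at 4-fold, 160 by DESeq2, 334 without a filter, 21 with at least 10 counts in every library, 71 with no chromosome set aside and 86 with the library of 68378 counts, and leaving out libraries gave 14 to 82, with 14 without WT-H3.3 72 h replicate 1, 82 without H3.3K27L 24 h replicate 2 and 75 without WT-H3.3 24 h replicate 2, and 15 to 22 without the other 4. The test between RA-treated cells and ESCs, with 30 calls, gave 10 at 4-fold, 115 by DESeq2 and 198 without a filter. Leaving out each RA library of H3.3K27L and WT-H3.3 gave 0 to 21 calls, with 0 without WT-H3.3 at 72 h (1009 at an unadjusted p under 0.05), 3 without H3.3K27L at 24 h and 2 without H3.3K27L at 72 h.

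With the replicate block the ESC calls were 128 and those between RA-treated cells and ESCs 49. Whether the numbers pair the samples was not settled. The study repeated its experiments weeks apart, but not every pair of lines deviated together: the replicate 1 minus replicate 2 differences of 24 h correlated at −0.401 between H3.3K27L and WT-H3.3, 0.432 between H3.3K27M and WT-H3.3 and, at 72 h, 0.476. Settings chosen after seeing the data were the crossed block (66 calls in ESCs), the replicate 1 libraries of H3.3K27L alone in ESCs (82, and 97 between RA-treated cells and ESCs), and chromosome 6 with its longest low run set aside (362 in RA-treated cells, 32 in ESCs and 37 between them). The causes of these changes were not tested.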
